A study of Mus musculus with 24 samples.

Results

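Transporters of antibody-drug conjugate payloads were followed as 7 genes, all that were asked for by symbol (Abcb1a, Abcb1b, Abcc1, Abcc3, Abcc5, Abcg2 and Slc46a3), and all 7 were found among the 16996 genes with values. They were chosen for what their proteins carry, with earlier results of these data known. RNA was sequenced from cells enriched with beads for CD45, the surface protein shared by white blood cells, out of EMT6-hHER2 tumors grown in a mammary gland of BALB/c females aged 10 to 12 weeks. EMT6-hHER2 is 1 clone of a murine breast cancer line made to express human HER2, and every group, the untreated one included, carried these tumors in a wild-type host. Each group held 6 mice with 1 library per mouse, 24 in all. Tumors of 80 mm3 were left untreated or received a single dose of trastuzumab at 20 mg/kg, of T-DM1 at 15 mg/kg or of T-PNU at 1 mg/kg, and were taken on day 10. Trastuzumab is the antibody against HER2 alone, T-DM1 is the same antibody joined to a maytansinoid that blocks microtubules, and T-PNU is the antibody joined to a potent anthracycline that damages DNA. The conjugates therefore differ in payload and in dose together. The paper also reports that tumors responded to T-PNU but grew under T-DM1, and it marks some T-PNU samples as low-responding. For T-PNU it describes joining of the payload at a specific site by sortase, through a peptide linker. A difference between the conjugates cannot be split between payload, way of joining, dose and tumor response.

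ABC transporters use ATP to move small molecules across membranes, and several of them pump anthracyclines, maytansinoids and their metabolites out of cells, which is how they came to be known as multidrug resistance genes. SLC46A3 acts earlier in the route of a conjugate. It sits in the lysosomal membrane and lets the degradation product of T-DM1 pass from the lysosome, where the antibody is digested, into the cytosol. In immune cells these transporters also serve normal tasks, such as export of leukotrienes and of glutathione conjugates, and lymphocytes, natural killer (NK) cells and dendritic cells are known to differ in drug efflux.

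All values are log2 normalized expression as deposited. A difference of 1 is read as a 2-fold change, which holds only for plain log2 values, and the transformation behind them is not given. Folds and comparisons between genes rest on that reading. The depth of each library is unknown, and values of different genes are compared only after subtraction of log2 of the transcript length. In a bulk sample, fewer cells of a type and less RNA of a gene per cell cannot be told apart. The gene for CD45, Ptprc, had a mean of 14.69 over the 24 samples. Col1a2, a collagen gene of fibroblasts, stood at 15.16 and Krt8, a keratin of the tumor epithelium, at 13.01, so RNA of other cells was present in the enriched material. No length was subtracted from these means, and they give no proportion of cells. The paper reports a high purity of the enriched cells by flow cytometry. The heatmaps of the study show 20 of the 24 samples, leaving out B1 and C1 of the untreated group and E2 and B3 of the trastuzumab group, and the methods speak in general of looking for outlying samples. The first principal component of the 1000 most variable genes held 71.9% of their variance. On it, the omitted B1 lay at 37.3, E2 at 32.3, B3 at 19.7 and C1 at -2.26. The untreated mice shown in the heatmaps ran from -28.9 to -2.34 and the trastuzumab mice shown from -26.6 to -11.8. On the second component, C1 had the lowest value of the 24 (-20.0). The highest value of all on the first was that of T-PNU mouse C2 (46.3). Results are given over all 24 samples, with the values over the 20 beside them where they differ. Each of the 4 groups has its own unbroken run of numbers in the column headings, which do not say what the numbers stand for, so a treatment cannot be told apart from whatever sets these runs apart.

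Abcb1a and Abcb1b are neighboring copies that both encode P-glycoprotein, the pump that a single gene encodes in humans. Abcb1a lies at chr5:8660077-8748575 and Abcb1b at chr5:8798147-8866315, both on the forward strand of GRCm38, with 49571 bases between them. Over 4265 aligned bases their longest transcripts in GENCODE M21 were 86.5% identical, and they shared an unbroken run of 338 bases. Reads were 81 bases long, and 481 of the 4917 windows of that length in Abcb1a (9.78%) were also present in Abcb1b. Reads from those windows cannot be assigned to either gene, so a part of the transcript was invisible in both. The stretches that directly follow the shared run, of 81 coding bases each across 2 exons, are shown as an example of a place where little separates the copies at the read length. They lie beside the longest shared run and are more alike than the transcripts as a whole, which were 86.5% identical. Capitals mark the 2 bases that differ, and the first stretch spans bases 1847 to 1927 of its transcript (chr5:8702945-8713248), the second bases 1814 to 1894 (chr5:8825265-8825612).
Abcb1a: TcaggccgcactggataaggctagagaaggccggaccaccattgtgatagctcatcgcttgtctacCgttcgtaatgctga
Abcb1b: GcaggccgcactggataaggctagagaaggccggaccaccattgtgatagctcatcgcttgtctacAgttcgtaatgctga

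Per kilobase of the longest transcript, Abcc1 had the highest level of the 7 genes, with a mean of 9.82 over the 24 samples, and Slc46a3 the lowest with 5.12. Between them came Abcc3 at 9.06, Abcb1b at 8.55, Abcc5 at 8.41, Abcb1a at 7.30 and Abcg2 at 5.90. Abcb1b and Abcc5 lay closer together than the SD of either gene over the samples (0.31 and 0.30). Abcc1 and Abcc3 changed places when all exons of a gene were counted as its length (8.67 and 8.88 on that scale), and the order of the other 5 stayed. Within each group the means stood in that same order, except in T-DM1 mice, where Abcb1b (8.13) came just below Abcc5 (8.15), as the plot of levels per length shows.

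**Figure D1:**
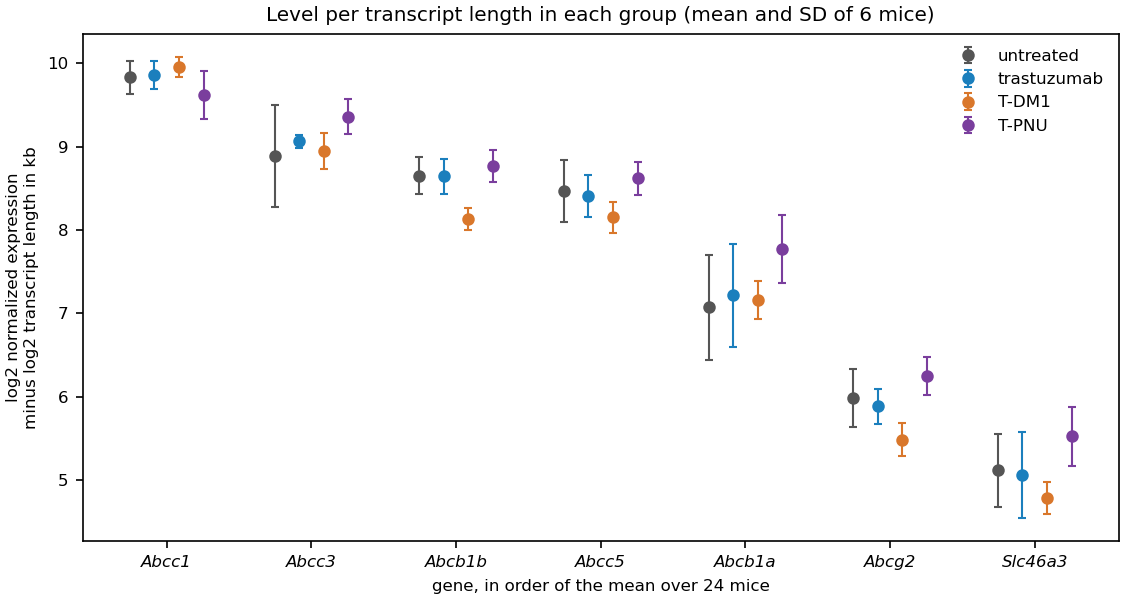
Level of the 7 transporter genes per transcript length (log2 normalized expression minus log2 of the length in kb, y axis) in each of the 4 groups, as mean and SD of 6 mice. Abcc1 is highest with a mean of 9.82 over 24 mice and Slc46a3 lowest with 5.12, and in the T-DM1 group Abcb1b (8.13) and Abcc5 (8.15) stand level.

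Levels in the 4 groups are taken first for P-glycoprotein. Abcb1b ranged from 10.40 in untreated mouse E1 to 11.02 in C1, with a median of 10.84. Its trastuzumab values ran from 10.51 to 11.05 with a median of 10.74, its T-PNU values from 10.61 to 11.13 with a median of 10.84, and its T-DM1 values from 10.09 to 10.48 with a median of 10.21. The T-DM1 group was thus the low one, and it did not overlap with the T-PNU or the trastuzumab group, while 1 of its mice, C3, lay above the lowest untreated mouse. How many of all genes keep groups apart in this way was not counted, here or for the genes below. Abcb1b fell in T-DM1 against untreated mice by 0.52 on the log2 scale (SE 0.11, 95% interval -0.74 to -0.29, adjusted p = 0.00975, a fold of 0.698) and against trastuzumab by 0.51 (SE 0.11, adjusted p = 0.0274). The call against trastuzumab was lost over the 20 samples (adjusted p = 0.0922) and without any 1 of 7 libraries, which are named with that comparison.

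Abcb1a had the widest spread of the 7 between mice of a group, wider than that of 94.3% of all genes. It ran from 8.73 in untreated A1 to 10.34 in B1 with a median of 9.12, and from 8.82 in trastuzumab G2 to 10.42 in E2 with a median of 9.45. T-DM1 values ran from 9.12 to 9.83 (median 9.48) and T-PNU values from 9.60 to 10.68 (median 10.07). T-PNU had the highest median, but all the groups overlapped, and the highest untreated and trastuzumab values belonged to mice that the heatmaps leave out. The difference between T-PNU and untreated mice was 0.70 (SE 0.27, 95% interval 0.13 to 1.26, adjusted p = 0.128), and over the 20 samples it was 1.09 (SE 0.19, adjusted p = 0.00252). T-DM1 differed from untreated mice by 0.09 (SE 0.27, 95% interval -0.48 to 0.65, adjusted p = 0.89) and over the 20 samples by 0.48 (adjusted p = 0.185), and whether Abcb1a and Abcb1b differed in their response to T-DM1 was not tested.

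Abcg2 encodes BCRP, an efflux pump of broad range that carries mitoxantrone and camptothecins. The longest transcript has 16 exons in a gene at chr6:58584523-58695676 on the forward strand. Its values ran from 8.15 to 9.14 in untreated mice (median 8.44), from 8.15 to 8.60 with trastuzumab (median 8.45), from 7.71 to 8.22 with T-DM1 (median 8.00) and from 8.52 to 9.19 with T-PNU (median 8.73). Again the T-DM1 median was the lowest, with 4 of 6 mice below every untreated mouse, and no T-DM1 value reached the T-PNU range. Abcg2 fell in T-DM1 against untreated mice by 0.50 (SE 0.14, 95% interval -0.79 to -0.20, adjusted p = 0.0406, a fold of 0.708). That call rested on single libraries, since it was lost when any 1 of untreated A1, B1 and C1 or T-DM1 D3, E3, F3 and G3 was left out, with an adjusted p of up to 0.107, and over the 20 samples the difference was -0.32 (adjusted p = 0.185), where 2.01% of all genes were called and Abcb1b alone of the 7 (adjusted p = 0.0454).

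Slc46a3, the lysosomal carrier, lies at chr5:147878437-147894815 on the reverse strand and had the lowest level of the 7. Its mean, with no length subtracted, was above that of 32.3% of all genes. Its values ran from 6.03 to 7.14 in untreated mice (median 6.23), from 5.82 to 7.12 with trastuzumab (median 6.20), from 5.75 to 6.27 with T-DM1 (median 6.11) and from 6.34 to 7.21 with T-PNU (median 6.93). All 6 T-PNU mice lay above all 6 T-DM1 mice, whereas the untreated and trastuzumab groups each spanned most of the range of the 24 samples. T-PNU exceeded untreated mice by 0.41 (SE 0.22, 95% interval -0.04 to 0.86, adjusted p = 0.242), and by 0.67 over the 20 samples (adjusted p = 0.00775). For T-DM1, whose catabolite this carrier transports, the difference from untreated mice was -0.33 (SE 0.22, 95% interval -0.79 to 0.12, adjusted p = 0.371), and -0.07 over the 20 samples (adjusted p = 0.842).

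The MRP pumps were the third group. Abcc1 (MRP1, an exporter of glutathione conjugates, leukotriene C4 and anthracyclines, chr16:14361558-14475737, forward strand) was the one gene whose T-PNU mean was the lowest of the 4 groups. Its values ran from 12.24 to 12.81 in untreated mice, from 12.39 to 12.80 with trastuzumab, from 12.57 to 12.85 with T-DM1 and from 12.03 to 12.74 with T-PNU, and 4 of the 6 T-PNU mice lay below every T-DM1 mouse. Abcc3 (MRP3, an exporter of glucuronides and bile acids, chr11:94343295-94392997, reverse strand) had medians of 11.20, 11.40, 11.32 and 11.75 in untreated, trastuzumab, T-DM1 and T-PNU mice. Its untreated values were spread from 10.26 in B1 to 12.16 in C1, wider than the whole range of the other 3 groups together (10.97 to 11.87). Abcc5 (MRP5, an exporter of cyclic nucleotides and nucleotide analogs, chr16:20331303-20426394, reverse strand) ran from 10.67 to 11.49 in untreated mice, from 10.60 to 11.27 with trastuzumab, from 10.44 to 10.94 with T-DM1 and from 10.97 to 11.47 with T-PNU. None of the 3 MRP genes passed the test in any comparison with untreated mice or with trastuzumab over the 24 samples.

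**Figure D2:**
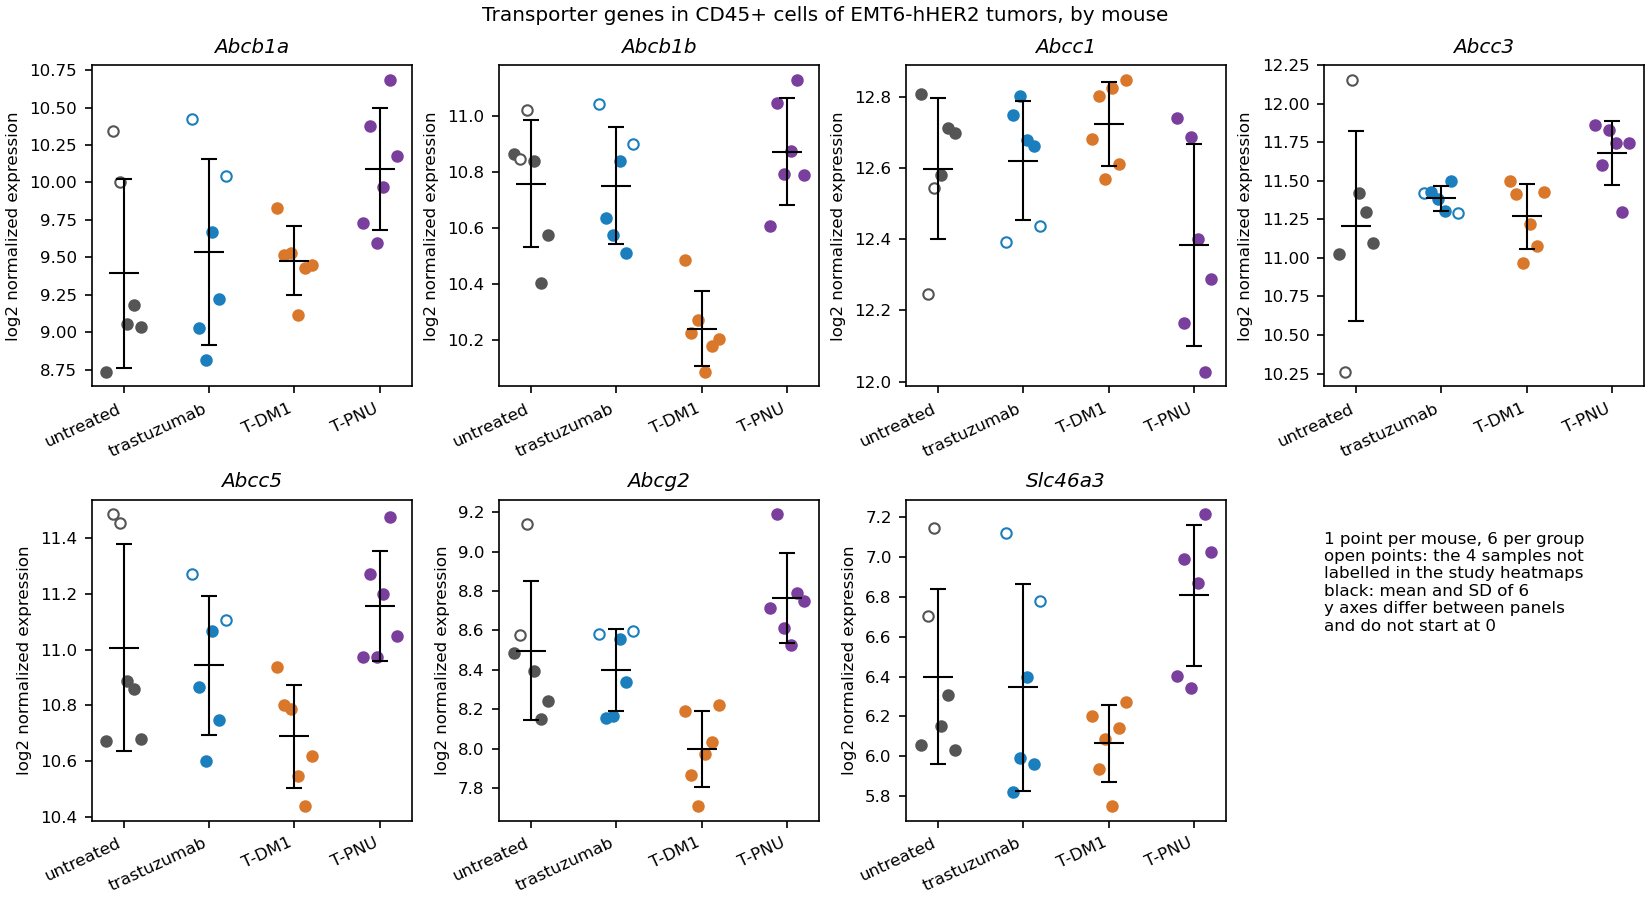
Log2 normalized expression (y axis, a separate scale for each gene) of the 7 transporter genes in each mouse, by group, with the mean and SD of 6 mice in black. Open points are the 4 samples that the study's heatmaps leave out, and the T-DM1 group has the lowest values and median of Abcb1b (10.09 to 10.48) and Abcg2 (7.71 to 8.22), though single T-DM1 mice reach into other groups.

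Over the 4 groups together, limma's F test called Abcb1b (adjusted p = 0.00491) and Abcg2 (adjusted p = 0.0102) and none of the other 5 genes, where 18.8% of all genes were called. The comparison in which most of these genes passed the test was that of T-PNU with T-DM1, the conjugates with different payloads at different doses. Of the 7 genes, 4 rose and 1 fell in T-PNU relative to T-DM1, where 29.8% of all genes were called (12.4% higher and 17.4% lower). The largest difference among the 7 was that of Abcg2 at 0.76 (SE 0.14, 95% interval 0.47 to 1.06, adjusted p = 0.00163, a fold of 1.70), followed by Slc46a3 at 0.74 (SE 0.22, adjusted p = 0.0153, 1.67-fold), Abcb1b at 0.63 (SE 0.11, adjusted p = 0.00120, 1.55-fold) and Abcc5 at 0.47 (SE 0.14, adjusted p = 0.0194, 1.38-fold). For each of these 4 genes the 6 T-PNU values lay above the 6 T-DM1 values. How many of all genes separated the groups in this way was not counted. Abcc1 fell by 0.34 (SE 0.11, 95% interval -0.57 to -0.10, adjusted p = 0.0289). Abcb1a, with a difference of 0.61 (95% interval 0.05 to 1.17, adjusted p = 0.0902), and Abcc3, with 0.41 (95% interval 0.02 to 0.80, adjusted p = 0.097), did not pass, and over the 20 samples all 7 did, where 39.9% of all genes were called. The Abcc1 call was lost without T-DM1 D3, F3 or H3 or T-PNU H1, C2 or D2, the Abcc5 call without T-PNU C2 (adjusted p = 0.0525), and a call of Abcc3 was gained without untreated B1 or C1.

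In T-DM1 against untreated mice 2 of the 7 genes were called, both lower, where 6.27% of all genes were called and 2.15% were lower. In T-DM1 against trastuzumab only Abcb1b was called, where 0.647% of all genes were. That call was lost without trastuzumab E2, H2 or B3 or without T-DM1 D3, E3, F3 or G3, with an adjusted p of up to 0.0866, and over the 20 samples (difference -0.40, adjusted p = 0.0922, where 0.812% of all genes were called). These comparisons share their T-DM1 samples, and that with T-PNU does too.

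No transporter gene passed the test in T-PNU against untreated mice over the 24 samples by limma, 2 had an unadjusted p under 0.05 (Abcb1a and Abcc3), and 0.188% of all genes were called. Such an unadjusted p was found for 4218 of all 16996 genes. Over the 20 samples 6 of the 7 were called, all but Abcb1b, where 31.1% of all genes were. All of these were higher in T-PNU except Abcc1, which differed by -0.32 (adjusted p = 0.0387). Without untreated C1 alone, 3 genes passed (Abcb1a, Abcc3 and Abcg2), where 17.2% of all genes did. The level of 8 T cell marker genes (their mean after each was centred on its mean over the 24 samples) was -0.31 ± 1.13 (SD, n = 6) in untreated mice, with A1 lowest at -1.54 and the omitted B1 and C1 highest, and 0.67 ± 0.82 (SD, n = 6) with T-PNU, where it ran from -0.34 to 1.82. The part of T cells in these calls was not tested. In T-PNU against trastuzumab, no member was called over the 24 samples, where 0.00588% of all genes were, and 3 had an unadjusted p under 0.05 (Abcc1, Abcg2 and Slc46a3), as did 3308 of all 16996 genes. Over the 20 samples 5 were called (all but Abcb1b and Abcc3), where 28% of all genes were. Trastuzumab alone was not shown to differ from no treatment for any of the 7 genes, none of which had an unadjusted p under 0.05 (1491 of all 16996 genes did), and 0.259% of all genes were called. The 95% intervals of that comparison ran from -0.23 to 0.22 for Abcb1b, the narrowest, and from -0.42 to 0.70 for Abcb1a, the widest.

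**Figure D3:**
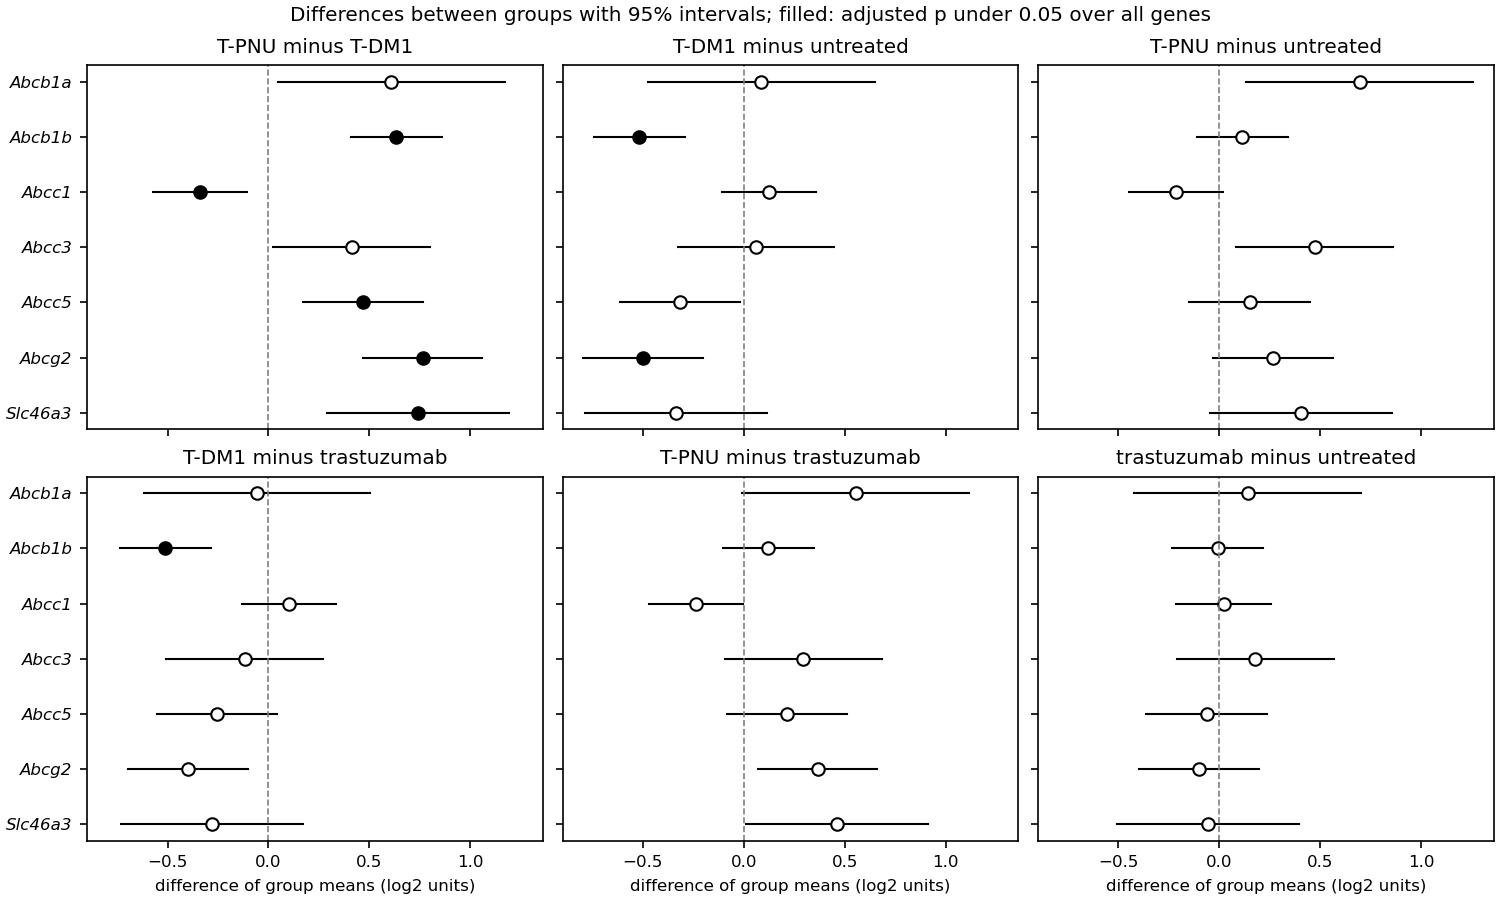
Differences of group means in log2 units (x axis) for the 7 genes in the 6 comparisons, with 95% intervals from limma. Filled points passed an adjusted p under 0.05 over all 16996 genes, which 5 genes did in T-PNU against T-DM1, 2 in T-DM1 against untreated mice and 1 in T-DM1 against trastuzumab.

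Marker genes of cell types also differed between the T-PNU and T-DM1 groups. The level of a list is the mean of its genes after each is centred on its mean over the 24 samples. The 6 fibroblast genes (Col1a1, Col1a2, Col3a1, Dcn, Pdgfra and Lum) stood between 0.50 and 0.71 in all T-DM1 mice, between -0.99 and 0.02 in untreated mice, between -0.07 and 0.55 with trastuzumab and between -1.25 and 0.10 with T-PNU. Of these 6 genes, 3 were called higher in T-DM1 than in untreated mice, where 4.11% of all genes were, and 5 lower in T-PNU than in T-DM1. For every list here, 12.4% of all genes were called higher and 17.4% lower in T-PNU than in T-DM1. The 4 pan leukocyte genes (Ptprc, Coro1a, Laptm5 and Cd53) ran from -0.44 to -0.03 with T-DM1 and from -0.12 to 0.75 with T-PNU, and 3 of them were called higher in T-PNU than in T-DM1. All 6 NK cell genes, 4 of the 8 macrophage and monocyte genes, 2 of the 6 dendritic cell genes, 2 of the 6 mast cell genes and 1 of the 6 neutrophil genes were called higher in T-PNU than in T-DM1 as well. So were 4 of the 6 endothelial genes and 3 of the 6 epithelial and tumor cell genes, while 1 of the latter was called lower. No T cell, B cell or red blood cell gene was called in either direction, though their median differences were 0.94, 1.02 and -0.68. The T cell level varied widely between mice (SD 0.82 with T-PNU and 0.76 with T-DM1), as did the B cell level (SD 1.60 and 1.43). The lack of calls there does not show that these lists were equal. Against untreated mice, the median difference of the NK cell genes was -0.008 with T-DM1 and 0.68 with T-PNU. That of the macrophage and monocyte genes was -0.42 and 0.24, and that of the fibroblast genes 0.88 and -0.38. The part of these cell types in the differences of the transporter genes was not tested.

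Within groups, the transporter genes differed in the marker lists that they followed from mouse to mouse. In a fit of each gene on group and list level across all genes, the slope is the change of the gene in log2 units per log2 unit of list level. Abcc3 followed macrophages and monocytes with a slope of 1.00 (SE 0.067, adjusted p = 9.1e-10), and no other of the 7 genes did, where 30.2% of all genes had a slope that passed the test. Abcc3 also rose with the neutrophil list (slope 0.68, SE 0.17, adjusted p = 0.0103), as did Abcg2 (slope 0.53, SE 0.13, adjusted p = 0.00721), and both were positive slopes, which 8.67% of all genes had. The untreated mice that set the ends of the Abcc3 range, B1 and C1, were also the lowest and the highest of all untreated mice for macrophages and monocytes (-0.99 and 0.81). Over the 20 samples Abcc3 still passed on this list (slope 0.86, adjusted p = 0.0029) but not on the neutrophil list (slope 0.18, adjusted p = 0.589).

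Abcb1a, Abcc5 and Slc46a3 rose with the T cell and dendritic cell lists, over the 24 and over the 20 samples. In both sets they also passed on the pan leukocyte list and, with negative slopes, on the fibroblast list. Ccr7 had the widest range of the 6 dendritic cell genes, from 10.88 to 14.77, so the level of that list leans on it. On the T cell list (Cd3d, Cd3e, Cd3g, Cd2, Cd8a, Cd8b1, Cd4 and Cd28) the slope of Abcb1a was 0.48 (SE 0.056, adjusted p = 2.88e-07), that of Slc46a3 0.33 (SE 0.061, adjusted p = 8.88e-05) and that of Abcc5 0.23 (SE 0.036, adjusted p = 1.14e-05). Abcb1b had a smaller slope of 0.13 (SE 0.037, adjusted p = 0.00562) that did not pass over the 20 samples (0.11, adjusted p = 0.123), and Abcc1 went the other way with -0.20 (SE 0.024, adjusted p = 3.88e-07). Positive slopes on this list were found for 27.7% of all genes and negative ones for 26.3%, so single calls there were common. On the dendritic cell list 6 of the 7 genes had slopes that passed, all but Abcc3, where 46.1% of all genes did. The largest were those of Abcb1a (1.10, SE 0.13) and Slc46a3 (0.89, SE 0.099). With the 20 samples 4 passed on it, without Abcb1b (adjusted p = 0.103) and Abcg2 (adjusted p = 0.104). On the NK cell list 5 genes passed, all positive, where 9.26% of all genes were, with slopes from 0.27 for Abcb1b to 0.90 for Abcb1a, but over the 20 samples none of the 7 passed. On the B cell list 4 genes passed (Abcb1a, Abcc5 and Slc46a3 positive, Abcc1 negative), where 24.1% of all genes had a positive and 23% a negative slope. Abcc5 (adjusted p = 0.189) and Slc46a3 (adjusted p = 0.0627) did not pass there over the 20 samples.

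**Figure D4:**
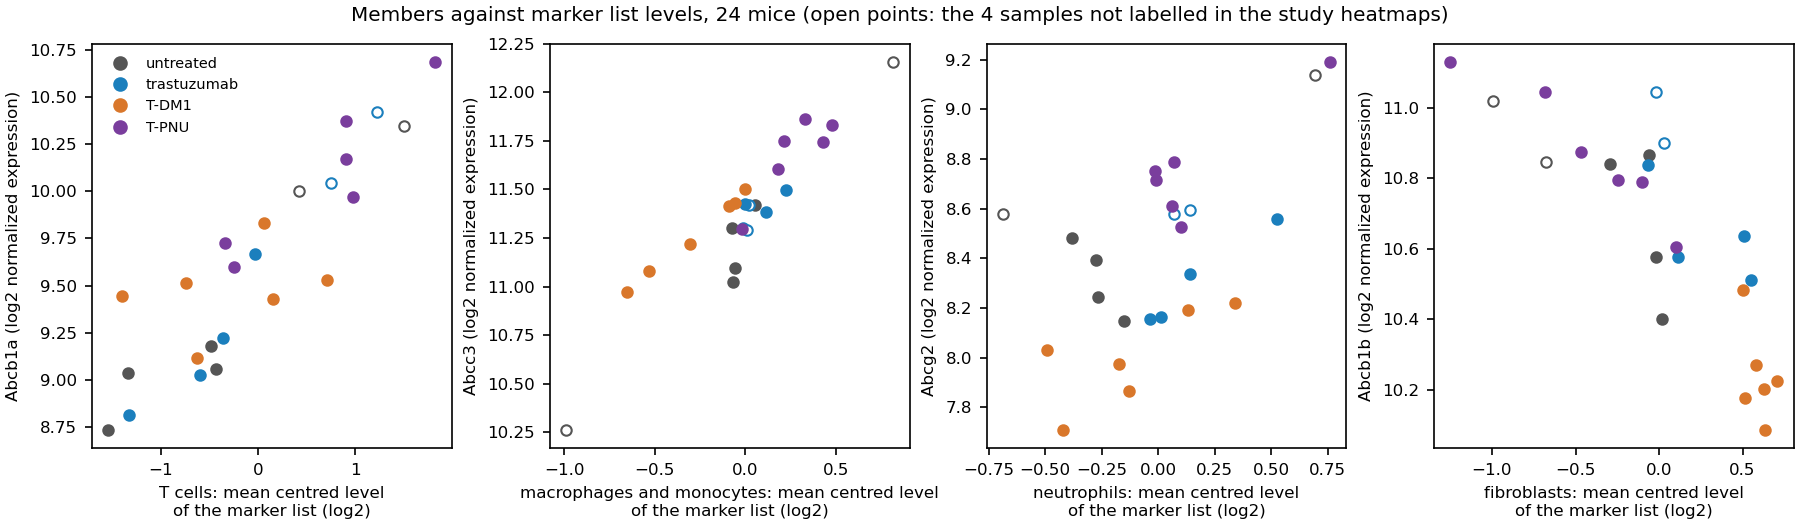
Log2 normalized expression of a transporter gene (y axis) against the centred level of a marker list (x axis, log2) in 24 mice, colored by group, for Abcb1a and T cells, Abcc3 and macrophages and monocytes, Abcg2 and neutrophils, and Abcb1b and fibroblasts. Abcc3 rises by 1.00 per unit of the macrophage and monocyte list within groups, and the T-DM1 mice lie together at fibroblast levels from 0.50 to 0.71 and low Abcb1b.

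On the fibroblast list the same 6 genes passed with opposite signs. Abcc1 rose with it (slope 0.41, SE 0.094, adjusted p = 0.00171), and the other 5 fell, from -0.43 for Abcb1b to -1.03 for Abcb1a, where 20.8% of all genes had a positive and 22.7% a negative slope. The pan leukocyte list gave the reverse, with Abcc1 at -0.66 (SE 0.097) and positive slopes from 0.58 for Abcg2 to 1.71 for Abcb1a, where 26.7% of all genes had a positive and 24.2% a negative slope. Abcg2 alone had a slope on the endothelial list that passed (0.51, SE 0.13, adjusted p = 0.0436), where 2.72% of all genes did, and over the 20 samples it did not pass (0.46, adjusted p = 0.106). Abcg2 in those 20 also did not pass on the fibroblast (adjusted p = 0.291) and pan leukocyte (adjusted p = 0.371) lists, and Abcc3 passed on the fibroblast list (0.34, adjusted p = 0.0376). No member passed on the mast cell, the epithelial and tumor cell or the red blood cell list, for which 2.49%, 0% and 0.0294% of all genes did. In all, 36 of the 84 slopes passed. The marker lists themselves move together in these mice, so a slope does not assign a gene to 1 cell type.

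**Figure D5:**
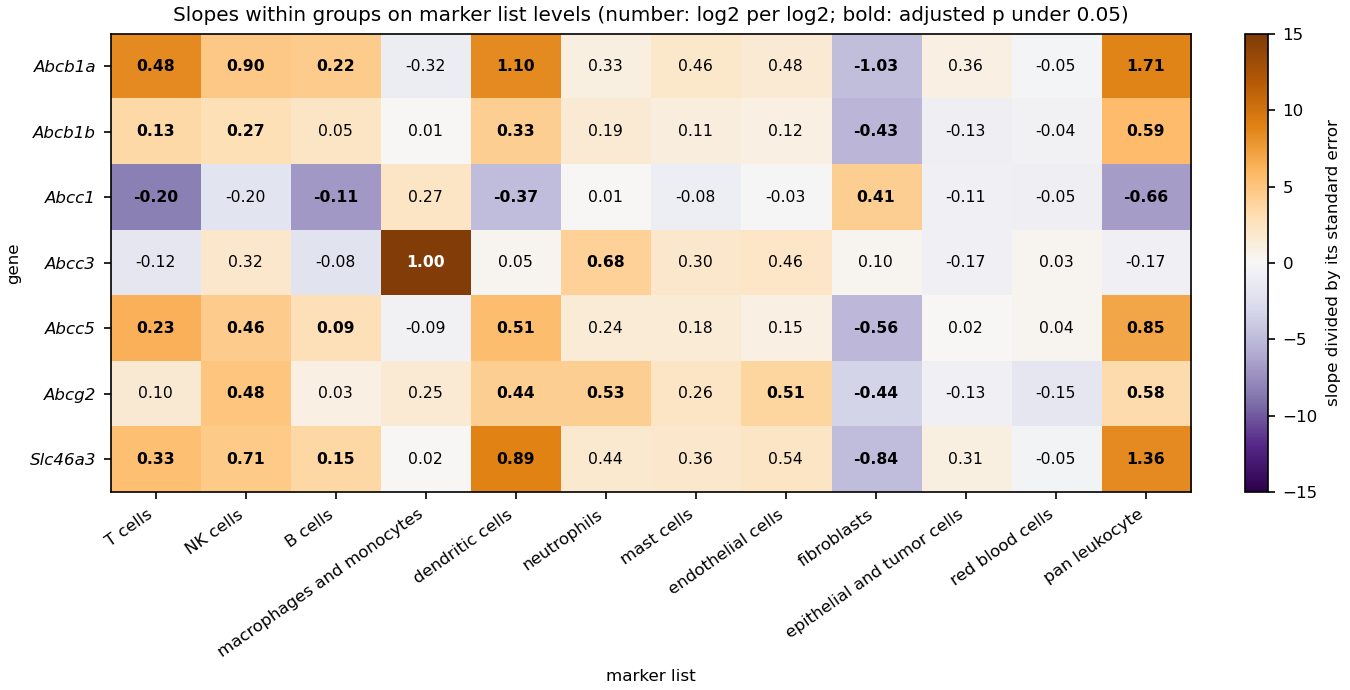
Slopes of the 7 genes (rows) on the levels of 12 marker lists (columns) within groups, in log2 units per log2 unit, over 24 mice, colored by the slope divided by its standard error. Bold numbers passed an adjusted p under 0.05, such as Abcc3 on macrophages and monocytes (1.00) and Abcb1a on T cells (0.48).

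The genes whose values were most like those of each member, after centring on the group means of the 24 samples, were sought among the named genes in the upper part of the expression range (mean over the 24 samples higher than that of the median gene). For Abcb1a they included Pecam1 (Pearson r 0.96) and Iqgap2 (0.96). For Abcc3 they were Cd68, a macrophage marker that is also in the list above (0.96), Tmem106a (0.96) and Grn, the gene of the lysosomal protein progranulin (0.96). Abcb1b was nearest to Tmem50b (0.92), Celf2 (0.91) and Birc3 (0.90), and Abcc1 to Myadm (0.96), Specc1 (0.96) and Ak4 (0.96). Abcc5 was nearest to 9930111J21Rik1 (0.96), Iqgap2 (0.95) and Ppm1h (0.95), Abcg2 to Bfar (0.94), Lmbrd1 (0.93) and Snap29 (0.92), and Slc46a3 to Nsmaf (0.94), Cdc42se2 (0.94) and Inpp5k (0.93). Among the members themselves, Abcb1a went with Abcc5 (0.92) and Slc46a3 (0.91) and against Abcc1 (-0.83), whereas Abcc3 went with none of them beyond 0.43 (with Abcc1). These are descriptions over mice that share the cell mixtures given above.

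The 4 genes that were called higher in T-PNU than in T-DM1, as 12.4% of all genes were, are shown with the bases before their transcription start. The promoter table from RefSeq on GRCm38.p6 held 5 of the 7 genes (Abcb1a, Abcb1b, Abcc5, Abcg2 and Slc46a3). Each window has 250 bases that end directly before the start, and for Abcg2, which has 3 starts in the table, the one within 1 base of the start of the longest transcript is shown. Capitals mark matches on either strand to the CCAAT box, to the GC box, spelled GGGCGG, to the core of the antioxidant response element, spelled TGACNNNGC, to the core of the xenobiotic response element, spelled GCGTG, or to the TATA box, spelled TATAAA.
Abcb1b, chr5:8797897-8798146, forward strand: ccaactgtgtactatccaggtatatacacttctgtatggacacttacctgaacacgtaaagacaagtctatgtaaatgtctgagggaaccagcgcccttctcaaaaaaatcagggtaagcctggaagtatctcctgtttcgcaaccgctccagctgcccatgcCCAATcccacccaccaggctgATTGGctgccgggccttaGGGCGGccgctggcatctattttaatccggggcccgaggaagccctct
Abcg2, chr6:58596422-58596671, forward strand: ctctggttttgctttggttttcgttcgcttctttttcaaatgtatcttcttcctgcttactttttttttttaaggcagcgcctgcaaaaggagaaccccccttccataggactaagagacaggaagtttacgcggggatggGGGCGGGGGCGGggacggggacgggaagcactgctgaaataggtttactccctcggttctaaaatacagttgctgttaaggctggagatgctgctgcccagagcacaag
Slc46a3, chr5:147894816-147895065, reverse strand: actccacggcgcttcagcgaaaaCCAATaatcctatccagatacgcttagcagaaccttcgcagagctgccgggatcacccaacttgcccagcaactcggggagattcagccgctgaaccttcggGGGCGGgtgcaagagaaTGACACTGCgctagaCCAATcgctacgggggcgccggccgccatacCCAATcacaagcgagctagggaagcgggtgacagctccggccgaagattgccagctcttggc
Abcc5, chr16:20426395-20426644, reverse strand: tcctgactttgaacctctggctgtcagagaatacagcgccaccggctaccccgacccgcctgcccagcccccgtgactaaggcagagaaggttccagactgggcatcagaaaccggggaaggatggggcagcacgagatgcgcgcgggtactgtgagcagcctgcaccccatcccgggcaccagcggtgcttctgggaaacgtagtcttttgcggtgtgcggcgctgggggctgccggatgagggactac
CCAAT was found 2 times before Abcb1b and 3 times before Slc46a3, and in 33.9% of all 32851 windows of this kind. GGGCGG was found once before Abcb1b, once before Slc46a3 and at 2 adjoining places before Abcg2, and in 32.7% of all windows. TGACNNNGC was found only before Slc46a3, beginning at position -108 from the start, and in 10.2% of all windows. None of the 5 patterns was found before Abcc5, whose window had 64% G and C against a median of 52.4% over all windows, and neither the xenobiotic response core (28.2% of all windows) nor the TATA box (12.4%) was found in any of the 4. No pattern was thus shared by all 4 genes.

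Other genes of payload handling came from lists of the pathway. For every list below, 12.4% of all genes rose and 17.4% fell in T-PNU against T-DM1, and 4.11% rose and 2.15% fell in T-DM1 against untreated mice. Of 29 other ABC transporter genes, 10 rose and 5 fell in T-PNU against T-DM1, with a median difference of 0.18 against 0.03 over all genes. The cholesterol exporters Abcg1 (0.87, adjusted p = 0.00605) and Abca1 (0.71, adjusted p = 0.00223) and the gene Abca9 (0.86, adjusted p = 0.00661) were higher, and Abcg4 was lower (-0.76, adjusted p = 0.00445). Abcc4, a further MRP gene, rose by 0.63 (adjusted p = 0.00334), and was named for its kinship after its value was seen. In T-DM1 against untreated mice 3 fell, among them Abcd2 (-0.57, adjusted p = 0.0393) and Abca14, a gene of very low level (-0.40, adjusted p = 0.0299), and none rose. Among 14 measured uptake carriers, 5 rose and 4 fell in T-PNU against T-DM1, led by Slco2b1, an organic anion carrier (0.74, adjusted p = 0.0107), and by the nucleoside carriers Slc29a1 (-0.59, adjusted p = 0.000898) and Slc28a2 (0.55, adjusted p = 0.0176), followed by Slc22a4 (-0.45, adjusted p = 0.0219). In T-DM1 against untreated mice, Slc29a2 (0.46, adjusted p = 0.013) and Slc29a1 (0.34, adjusted p = 0.0407) rose and Slco2b1 fell by 0.81 (adjusted p = 0.0217).

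Genes of the lysosome, where conjugates are digested, were called in 1 direction alone. Of 20, 6 rose in T-PNU against T-DM1 and none fell, with a median of 0.27 against 0.03 over all genes. They were led by the cathepsin genes Ctsc (0.54, adjusted p = 0.03), Ctss (0.54, adjusted p = 0.028) and Ctsb (0.53, adjusted p = 0.0314) and by Scarb2, which brings an enzyme to the lysosome (0.53, adjusted p = 0.00293). Of 18 subunits of the proton pump that acidifies it, 3 rose and 1 fell, namely Atp6v0c (0.57, adjusted p = 0.00631), Atp6ap2 (0.44, adjusted p = 0.0069), Atp6v0a2 (0.20, adjusted p = 0.0405) and Atp6v1g1 (-0.29, adjusted p = 0.0337). No gene of either list was called in T-DM1 against untreated mice.

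Genes of glutathione synthesis and conjugation went the other way. Of 20, 8 fell and 1 rose in T-PNU against T-DM1, with a median of -0.20. The largest falls were those of the transferase genes Gstt1 (-1.02, adjusted p = 0.00144), Gstm1 (-0.96, adjusted p = 0.0045), Gstm5 (-0.66, adjusted p = 0.00775) and Gsta4 (-0.60, adjusted p = 0.0325). Gstm1 (0.76, adjusted p = 0.0453) and Gstt1 (0.62, adjusted p = 0.049) also were higher in T-DM1 than in untreated mice. Of 14 genes that reduce the carbonyl and quinone groups of anthracyclines or handle related aldehydes, 2 rose in T-PNU against T-DM1, Cbr1, a carbonyl reductase (0.62, adjusted p = 0.00987), and Akr1c13 (0.60, adjusted p = 0.0161), and 3 fell, among them Akr1b8 (-0.60, adjusted p = 0.0131) and Akr7a5 (-0.43, adjusted p = 0.0113). In T-DM1 against untreated mice Por (0.38, adjusted p = 0.0317) and Aldh2 (0.37, adjusted p = 0.0497) rose. Of 15 measured regulators of transporter genes, Atf3, a stress-response factor, rose in T-PNU against T-DM1 (0.50, adjusted p = 0.0257), Ahr, the xenobiotic receptor, fell (-0.40, adjusted p = 0.0416), as did Hsf1 (-0.29, adjusted p = 0.0187) and Ybx1 (-0.28, adjusted p = 0.0164), and Hsf1 rose in T-DM1 against untreated mice (0.35, adjusted p = 0.0247).

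None of the 129 genes measured on these 7 lists was called in T-PNU or trastuzumab against untreated mice or in either conjugate against trastuzumab over the 24 samples by limma, where 34, 9, 21 and 29 of them had an unadjusted p under 0.05 (T-PNU and trastuzumab against untreated mice, then T-PNU and T-DM1 against trastuzumab). Of all 16996 genes, 4218, 1491, 3308 and 2604 had such a p in the same order of comparisons. Over the 20 samples 29 rose and 14 fell in T-PNU against untreated mice, where 31.1% of all genes were called, and 18 rose and 9 fell in T-PNU against trastuzumab, where 28% were. In T-DM1 against untreated mice 7 of the 129 rose and 4 fell over the 24 samples, where 6.27% of all genes were called, and none rose and 3 fell over the 20, where 2.01% were.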

How the data were processed

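RNA-seq libraries of CD45+ cells from 24 tumors, 6 in each of 4 groups, were analysed. The authors aligned single-end reads of 81 bases to mm10 with STAR 2.4.2a, counted reads per gene by strand with featureCounts (Subread 1.5.0), removed genes with an average count under 5 and used DESeq2. The deposited values are log2 normalized expression for 16996 genes. The transformation is not given in the sources used here, counts were not recovered, and precision is judged from the spread between mice alone. No column was left unmapped. Groups were taken from the sample labels.

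Linear models for all genes and the 4 groups in 1 fit were run in R 4.3.3 by limma 3.58.1, whose eBayes step used a mean-variance trend, with Benjamini-Hochberg adjustment over 16996 genes and calls at an adjusted p under 0.05. This applies to every adjusted p given. Slopes came from fits of group plus list level. Alternatives were the 20 samples shown in the study's heatmaps, quantile normalization, a filter keeping the upper part of gene means (above their median), sample weights, no variance trend, only the groups compared, 2 other thresholds and each sample left out. The 7 genes, the gene lists and the tests were chosen with earlier results of these data known. All 7 genes were named, and from each list the called genes, at most the 4 with the largest difference, and for each member the 3 genes with the most alike values. Of the genes so chosen, 2 are not reported here. Positions and lengths came from GENCODE M21 and upstream sequences from RefSeq on GRCm38.p6. Transcripts were aligned with Biopython 1.88, and figures drawn with matplotlib 3.10.9. The fits were tested on simulated data.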

Additional observations from a re-analysis of the deposited data

How the results depend on the processing

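No paired analysis was possible because the labels give no replicate number that links mice of different groups. The depth of the libraries is unknown, so a low gene such as Slc46a3 has no limit of detection here. Of 1248 differences of single genes under the alternatives, 1159 kept their direction and side of the threshold, 25 lost the call, 31 gained it and 33 changed sign, and the causes were not tested. Leaving out a mouse of a group not compared, or the variance trend, cannot change a difference, only its adjusted p. The direction of many of the 1159 was thus fixed in advance. None of the sign changes was of a called difference.

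The number of the 7 genes called changed most with the samples that entered. Over the 20 samples it was 6 in T-PNU against untreated mice (0 over the 24), 1 in T-DM1 against untreated mice (2), 5 in T-PNU against trastuzumab (0) and 0 in T-DM1 against trastuzumab (1), and 23 slopes passed where 36 had. Sample weights gave 6 in T-PNU against untreated mice, where 34.3% of all genes were called, and 3 in T-PNU against trastuzumab, where 13.3% were. They gave 7 in T-PNU against T-DM1, where 44.6% were. With the genes above the median alone, of which Abcg2 and Slc46a3 are not part, 1, 0 and 3 were called in T-DM1 against untreated mice, T-DM1 against trastuzumab and T-PNU against T-DM1. Of all genes so kept, 8.81%, 0.0471% and 35.3% were called there. The fit of the 2 groups alone gave 1 in T-DM1 against untreated mice (3.65% of all genes) and 7 in T-PNU against T-DM1 (32.8%). A false discovery rate of 0.1 also gave 7 in T-PNU against T-DM1, where 40.2% of all genes were called. With the stricter call (false discovery rate of 0.01 and fold of 2), 0 were called in T-DM1 against untreated mice, T-DM1 against trastuzumab and T-PNU against T-DM1, where 0.153%, 0.0706% and 1.91% of all genes were.

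Leaving out 1 mouse at a time gave 0 to 3 calls in T-PNU against untreated mice (3 without C1), 1 to 2 in T-DM1 against untreated mice, 0 to 1 in T-DM1 against trastuzumab, 3 to 6 in T-PNU against T-DM1 and 0 to 0 in trastuzumab against untreated mice and T-PNU against trastuzumab, and 33 to 37 slopes. The share of all genes called in these fits was 18.5% to 34.6% in T-PNU against T-DM1. It was 2.47% to 9.57% in T-DM1 against untreated mice, 0.188% to 2.08% in T-DM1 against trastuzumab and 0% to 17.2% in T-PNU against untreated mice. Differences that changed sign then ranged, in trastuzumab against untreated mice, from -0.0355 to 0.33 (Abcb1a), -0.0792 to 0.0447 (Abcb1b), -0.0481 to 0.0681 (Abcc1), -0.0117 to 0.37 (Abcc3), -0.13 to 0.0331 (Abcc5), -0.17 to 0.0288 (Abcg2) and -0.21 to 0.0936 (Slc46a3). In T-DM1 against untreated mice they ranged from -0.0458 to 0.28 (Abcb1a) and -0.13 to 0.25 (Abcc3), and in T-DM1 against trastuzumab from -0.20 to 0.12 (Abcb1a). Over the 20 samples the sign changed for Abcc5 in trastuzumab against untreated mice (0.0467) and in T-DM1 against trastuzumab for Abcb1a (0.29), Abcc1 (-0.000594) and Slc46a3 (0.0217). Sample weights changed it in trastuzumab against untreated mice for Abcb1b (0.021) and Abcc5 (0.0604) and in T-DM1 against trastuzumab for Abcb1a (0.12).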
